A study of Mus musculus with 70 samples.

Results

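The granule protease and granule progenitor genes Prtn3, Elane, Mpo, Ctsg, Ms4a3, Fcnb, Camp, Ltf and Ngp were followed in leukocytes sorted from the blood of mice after chronic social defeat stress (CSDS). They were chosen by name and are 9 of the 52636 genes in the count table. Each was matched to its row by the Ensembl identifier that GENCODE M21 pairs with the symbol, and all 9 had a row.

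Neutrophils carry their proteins in granules that are filled in a fixed order while the cell matures in bone marrow. The azurophil granules come first, at the promyelocyte stage, and hold myeloperoxidase (Mpo) and the serine proteases proteinase 3 (Prtn3), neutrophil elastase (Elane) and cathepsin G (Ctsg). The specific granules follow, at the myelocyte stage, and hold lactoferrin (Ltf), the cathelicidin peptide (Camp) and neutrophilic granule protein (Ngp), while Ms4a3 marks granulocyte and monocyte progenitors and Fcnb codes for the lectin ficolin B of immature myeloid cells. Monocytes arise from related progenitors, and transcripts of these genes are known to fall as cells leave the marrow.

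C57BL/6J mice aged 7 to 8 weeks met an aggressive CD-1 mouse for 10 min a day over 10 days and were otherwise kept beside it, separated by a divider. Stressed mice were called susceptible (SUS) or resilient (RES) by a social interaction test, with a ratio of 1 as the limit, and unstressed control (CON) mice were housed in pairs across such a divider. Red blood cells were lysed, and T cells, B cells and monocytes high or low in Ly6C (Tcells, Bcells, Ly6high and Ly6low in the sample labels) were sorted with antibodies that included one to the neutrophil antigen Ly6G. C57BL/6J is a wild-type strain shared by all groups, which differ in stress and behaviour. The labels give brain as the source of every library, whereas the series design and the paper describe blood, and they do not say whether 2 libraries come from 1 mouse. The p-values below measure the spread between these libraries.

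The 70 libraries held 19769835 to 67038231 counts on genes, with a median of 37105583.5, and each group of each cell type had 6 libraries, except 4 for CON mice in Ly6C-low monocytes. Library 52, labelled B cells of RES mice, held the B cell gene Cd79a at 5.21 and the T cell gene Cd3e at 373.5 CPM (counts scaled to library size), while the other 5 libraries of its group had 1139 to 1522 CPM of Cd79a. Library 70, labelled T cells of RES mice, had the reverse, with Cd79a at 1446 and Cd3e at 0.146 CPM. The 2 libraries were left out, so 68 libraries were used and the 2 groups had 5 each. Of the markers of Ly6C-high monocytes, Ly6c2 was at 231.3 to 882.7 CPM in the Ly6C-high libraries, against 0.170 to 3.15 CPM in the Ly6C-low ones, and the chemokine receptor gene Ccr2 at 797.7 to 2977 CPM, against 108.1 to 518.4 CPM. F13a1 was at 1818 to 2565 CPM, against 6.74 to 31.2 CPM, while Csf1r, the receptor gene that both kinds of monocyte use, was lower in Ly6C-high libraries, with means of 1364, 1615 and 1803 CPM in CON, SUS and RES mice, against 2047, 2322 and 2401 CPM. The 5 T cell markers summed to at most 8.15 CPM in Ly6C-high libraries. CPM were scaled by TMM within each cell type.

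The stretches before the transcription starts of 6 of these genes are shown: Prtn3 and its neighbour Elane, Mpo of the same granule, and Camp, Ngp and Ltf, which lie on 1 chromosome. Each is the 250 bases upstream of the RefSeq start (GRCm38.p6), read 5′ to 3′ on the strand of the gene. The end of each stretch lies within the gene as GENCODE M21 draws it, for Mpo from base 87793581 to 87793783. For Camp this part covers bases 109849457 to 109849617, and in both genes it is most of the stretch. For Prtn3 the whole stretch lies within the gene, which begins at base 79874476. Capitals mark matches to the core of PU.1 sites (GAGGAA), to MYB sites (AACGG) or to C/EBP sites (TTNNGNAA) on either strand.
Prtn3, chr10:79879417-79879666, plus strand: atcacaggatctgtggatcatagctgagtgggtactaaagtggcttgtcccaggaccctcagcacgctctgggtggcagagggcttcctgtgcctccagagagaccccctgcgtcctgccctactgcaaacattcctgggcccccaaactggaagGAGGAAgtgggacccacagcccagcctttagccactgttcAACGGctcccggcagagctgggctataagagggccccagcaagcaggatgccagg
Elane, chr10:79886062-79886311, plus strand: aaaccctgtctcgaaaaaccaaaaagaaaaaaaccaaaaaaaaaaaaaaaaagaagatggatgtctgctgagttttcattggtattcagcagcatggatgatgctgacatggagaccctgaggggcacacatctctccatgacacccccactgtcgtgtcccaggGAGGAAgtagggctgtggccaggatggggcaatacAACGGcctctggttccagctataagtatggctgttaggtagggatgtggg
Mpo, chr11:87793534-87793783, plus strand: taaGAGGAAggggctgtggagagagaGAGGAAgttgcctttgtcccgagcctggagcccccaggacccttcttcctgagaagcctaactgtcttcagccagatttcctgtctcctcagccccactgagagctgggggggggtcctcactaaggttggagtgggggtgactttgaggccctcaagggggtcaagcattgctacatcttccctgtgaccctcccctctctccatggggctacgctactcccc
Camp, chr9:109849457-109849706, minus strand: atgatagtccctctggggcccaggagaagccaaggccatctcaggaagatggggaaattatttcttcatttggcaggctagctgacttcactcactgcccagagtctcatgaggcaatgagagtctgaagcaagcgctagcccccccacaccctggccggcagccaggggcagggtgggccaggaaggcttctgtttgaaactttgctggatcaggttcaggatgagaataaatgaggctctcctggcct
Ltf, chr9:111019042-111019291, plus strand: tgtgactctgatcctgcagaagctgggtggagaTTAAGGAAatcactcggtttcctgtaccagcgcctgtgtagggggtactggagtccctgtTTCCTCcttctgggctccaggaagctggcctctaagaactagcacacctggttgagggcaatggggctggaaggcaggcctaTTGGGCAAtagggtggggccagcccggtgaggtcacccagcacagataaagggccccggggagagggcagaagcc
Ngp, chr9:110419558-110419807, plus strand: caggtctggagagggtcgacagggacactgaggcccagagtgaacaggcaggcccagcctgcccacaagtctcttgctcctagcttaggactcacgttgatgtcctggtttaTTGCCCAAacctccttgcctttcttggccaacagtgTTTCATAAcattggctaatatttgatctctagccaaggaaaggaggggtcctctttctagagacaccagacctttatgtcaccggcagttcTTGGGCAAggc

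The PU.1 core was found upstream of 5 of the 9 genes (Prtn3, Elane, Mpo, Ctsg and Ltf), against 23.25% of 32851 RefSeq promoters of the same length. The MYB letters were found in 2 of 9, Prtn3 and Elane, against 14.53% of all promoters. In these 2 neighbours both motifs stood in the same order, with the PU.1 core starting 95 and 85 bases and the MYB letters 55 and 50 bases before the RefSeq start. The C/EBP letters were found in 4 of 9 (Ms4a3, Fcnb, Ltf and Ngp, against 36.85% of all promoters) and the RUNX letters (TGTGGT) in 1 of 9 (Ctsg, against 14.05%), and Camp held none of the 4 motifs. A match is a description of letters, and no binding was measured here.

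In GENCODE M21 coordinates (GRCm38), all 9 are protein-coding genes. Prtn3 (ENSMUSG00000057729, chr10:79874476-79883174) and Elane (ENSMUSG00000020125, chr10:79886247-79888215) lie on the plus strand, 3072 bases apart. Mpo (ENSMUSG00000009350) lies at chr11:87793581-87804413, Ctsg (ENSMUSG00000040314) at chr14:56099881-56102574, Ms4a3 (ENSMUSG00000024681) at chr19:11629496-11640851 and Fcnb (ENSMUSG00000026835) at chr2:28076378-28084885. Camp (ENSMUSG00000038357, chr9:109847379-109849617), Ngp (ENSMUSG00000032484, chr9:110419747-110423012) and Ltf (ENSMUSG00000032496, chr9:111019271-111042767) lie within 1195389 bases that hold 31 protein-coding genes.

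Prtn3 was higher in Ly6C-high monocytes of both stressed groups than of CON mice, and it was the member whose groups separated fully. The 6 CON libraries held 72, 101, 84, 93, 72 and 81 reads of Prtn3. The 6 SUS libraries held 972, 524, 1401, 1353, 1521 and 463 reads, and the 6 RES libraries 321, 136, 2263, 374, 713 and 432 reads. The lowest stressed library, replicate 2 of RES mice, was thus above the highest CON library. In CPM, CON libraries spread narrowly, at 2.15 ± 0.342 (SD, n = 6), whereas SUS libraries were at 25.0 ± 12.5 and RES libraries at 16.1 ± 11.3 (n = 6 each). Prtn3 rose in SUS vs. CON mice by a log2 fold change of 3.54 (SE 0.43, edgeR quasi-likelihood test, Benjamini-Hochberg adjusted p = 0.000166), the second lowest p of the 16955 genes tested. It rose in RES vs. CON mice by 2.91 (SE 0.42, adjusted p = 0.00627), the lowest p in that comparison. Both contrasts share the CON libraries. SUS and RES libraries overlapped, and their difference of 0.63 on the log2 scale did not pass (SE 0.39, adjusted p = 0.999).

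A gene was called where the adjusted p was under 0.05 and the log2 fold change above 1 in size. In SUS vs. CON mice 2 of the 9 genes were called, both higher, against 3.45% of all genes tested, or 2.28% counting the higher ones alone. In RES vs. CON mice 1 of 9 was called, against 0.997%, or 0.531% higher. With DESeq2's size factors in place of TMM, 296 of 540 calls over all genes in SUS vs. CON mice were higher, compared with 387 of 585, and in RES vs. CON mice 61 of 152, compared with 90 of 169. Every Prtn3 library of SUS mice lay above every CON library, as it did for 4.3% of genes tested, and likewise in RES mice, as for 2.86%. The other 8 members overlapped CON libraries in both comparisons. No member was called in SUS vs. RES mice, where 0% of genes were called by edgeR and DESeq2 called 11. Of the 16955 genes tested, 620 had an unadjusted edgeR p under 0.05, a share below the 0.05 expected without any difference.

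**Figure D1:**
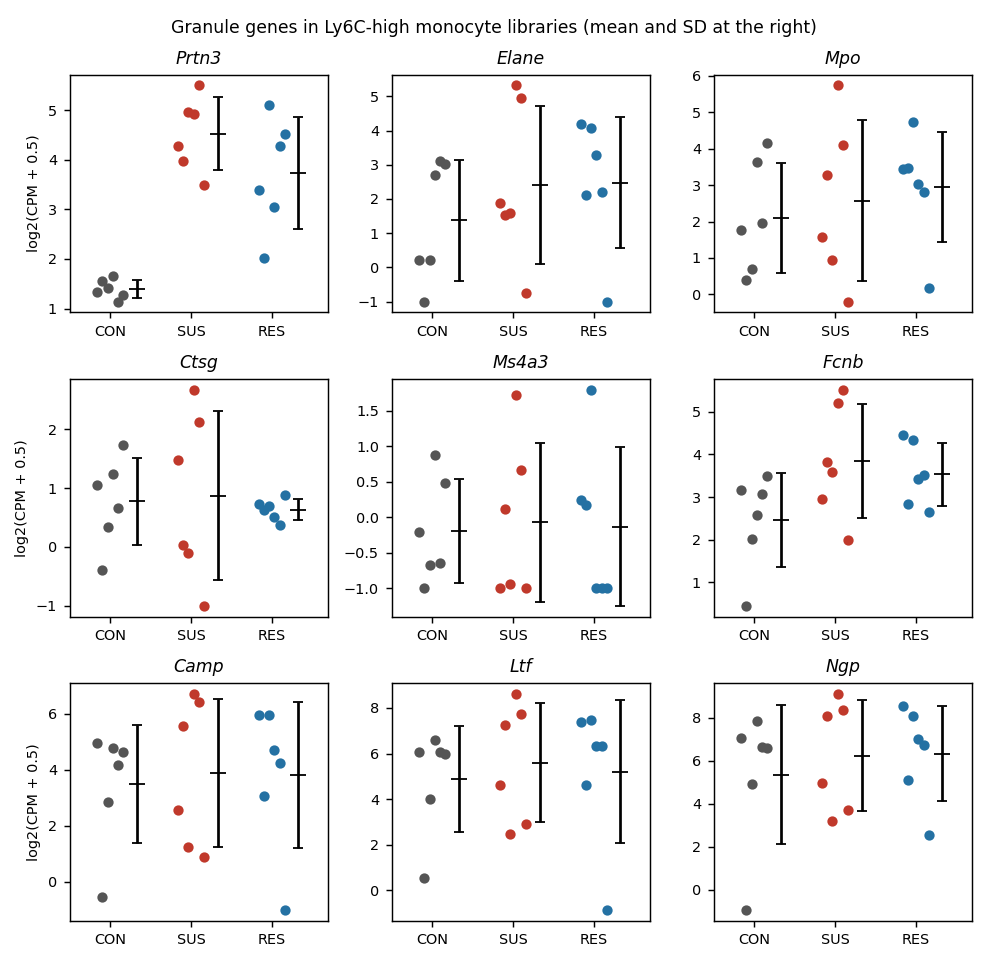
Level of each of the 9 genes in each Ly6C-high library, as log2(CPM + 0.5), for CON (grey), SUS (red) and RES (blue) mice, 6 libraries each, with the mean and SD beside the points. Prtn3 is the panel in which all stressed libraries lie above all CON libraries; in the others the groups overlap and single libraries lie far below the rest.

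The remaining azurophil granule genes did not pass the test, and libraries of 1 group spread widely. Elane, the elastase whose gene lies next to Prtn3, was at 0, 3.32 and 8.11 CPM in CON mice (lowest, median and highest library), at 0.0931, 2.83 and 39.5 CPM in SUS mice and at 0, 6.66 and 17.7 CPM in RES mice. Replicates 4 and 5 of SUS mice held 1803 and 1028 reads of Elane, while replicate 6 held 4. The log2 fold change was 1.75 in SUS vs. CON mice (SE 1.27, edgeR adjusted p = 0.417) and 1.15 in RES vs. CON mice (SE 1.25, adjusted p = 0.659).

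Mpo, which makes hypochlorous acid in the phagosome, was at 0.818, 3.15 and 17.3 CPM in CON mice, at 0.373, 5.83 and 53.0 CPM in SUS mice and at 0.623, 9.07 and 26.3 CPM in RES mice. One library, replicate 4 of SUS mice, held 2422 reads of Mpo, and the lowest SUS and RES libraries lay below the lowest CON library. Its change in SUS vs. CON mice was 1.16 (SE 1.01, edgeR adjusted p = 0.514). Ctsg, a chymotrypsin-like protease, was low throughout, at 0.265, 1.33 and 2.83 CPM in CON mice, at 0, 1.41 and 5.89 CPM in SUS mice and at 0.799, 1.08 and 1.35 CPM in RES mice. All RES libraries of Ctsg lay within the range of CON libraries, and it was the one member with a negative value in RES vs. CON mice, −0.40 (SE 0.86, edgeR adjusted p = 0.844).

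Of the progenitor stage genes, Fcnb was higher in SUS vs. CON mice. Ficolin B is a pattern recognition lectin that can start the lectin pathway of complement. Fcnb was at 0.866, 6.67 and 10.7 CPM in CON mice, at 3.47, 12.6 and 45.4 CPM in SUS mice and at 5.76, 10.6 and 21.4 CPM in RES mice. 4 of 6 SUS libraries and 3 of 6 RES libraries lay above the highest CON library. The log2 fold change was 1.67 in SUS vs. CON mice (SE 0.55, edgeR adjusted p = 0.0460) and 1.02 in RES vs. CON mice (SE 0.54, adjusted p = 0.286). The first value lies at the edge of the threshold: when each of the 18 libraries was left out in turn, the log2 fold changes were 1.21 to 1.94, and the call was lost in 11 fits, at 1.21 to 1.76. These were the fits without CON replicate 1, 2, 3, 4 or 5, SUS replicate 4 or 5, or RES replicate 2, 3, 4 or 5, with edgeR adjusted p from 0.0501 to 0.196. The lowest fold change was that without SUS replicate 5.

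Ms4a3 was close to the limit of detection. It was at 0, 0.252 and 1.33 CPM in CON mice, at 0, 0.301 and 2.80 CPM in SUS mice and at 0, 0.314 and 2.98 CPM in RES mice. No read was found in 1 CON, 2 SUS and 3 RES libraries. The highest libraries, SUS replicate 4 and RES replicate 3, held 128 and 198 reads, and they were also the highest of their groups for Mpo. Its change was 0.64 in SUS vs. CON mice (SE 1.56, edgeR adjusted p = 0.841).

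The specific granule genes had the highest levels of the 9. Per kilobase of exon, the median over the 18 libraries was 83.3 CPM for Ngp, 28.2 for Camp, 19.6 for Ltf, 6.96 for Fcnb, 6.00 for Prtn3, 4.03 for Elane, 2.08 for Mpo, 1.07 for Ctsg and 0.134 for Ms4a3. Between neighbours in this order the ranges over the 18 libraries overlapped in every case.

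Camp, the precursor of an antimicrobial peptide, was at 0.193, 20.8 and 30.8 CPM in CON mice, at 1.35, 25.9 and 104.2 CPM in SUS mice and at 0, 22.0 and 62.0 CPM in RES mice. Ltf, an iron-binding protein, was at 0.963, 65.2 and 97.4 CPM in CON mice, at 5.03, 89.0 and 394.1 CPM in SUS mice and at 0.0519, 79.4 and 176.3 CPM in RES mice. Ngp, a cystatin-related protein, was at 0.0241, 97.4 and 225.6 CPM in CON mice, at 8.75, 147.7 and 550.4 CPM in SUS mice and at 5.29, 116.6 and 366.1 CPM in RES mice. All 3 genes were nearly absent from the same libraries. CON replicate 2 held 8 reads of Camp, 40 of Ltf and 1 of Ngp, and RES replicate 6 held 0, 1 and 102. Those libraries held 101 and 432 reads of Prtn3, each within the range of its group. SUS replicate 3, which had 1401 reads of Prtn3, had 85 reads of Camp and 402 of Ngp.

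The log2 fold changes in SUS vs. CON mice were 1.21 for Camp (SE 1.20, edgeR adjusted p = 0.575), 1.36 for Ltf (SE 1.20, adjusted p = 0.521) and 1.03 for Ngp (SE 1.21, adjusted p = 0.646). In RES vs. CON mice they were 0.73, 0.76 and 0.63, and none of the 3 passed. All 9 members had positive values in SUS vs. CON mice, with a median of 1.21 compared with −0.0478 over all genes tested, and 8 of 9 in RES vs. CON mice, with a median of 0.74 compared with −0.0257. The members do not vary independently of each other, and 7 of the 9 values in SUS vs. CON mice were within the spread between libraries.

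**Figure D2:**
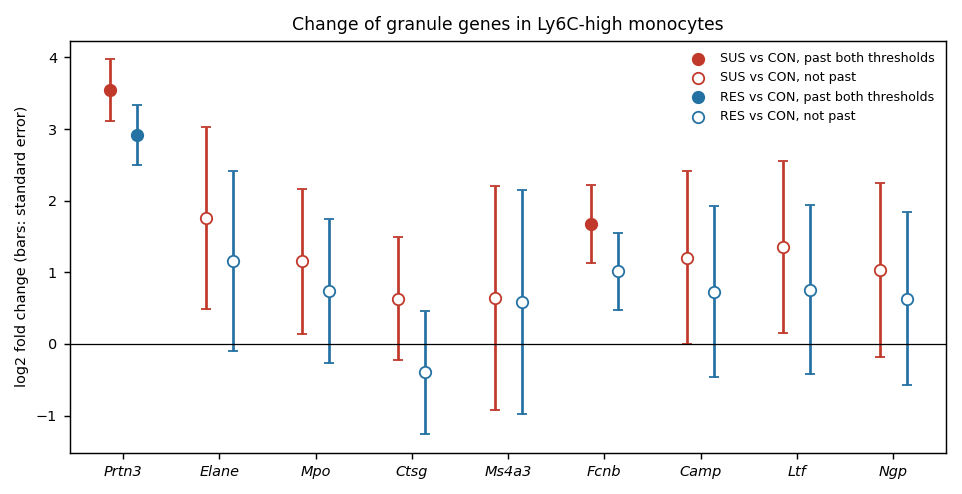
Fitted log2 fold change of each gene in Ly6C-high monocytes for SUS vs. CON (red) and RES vs. CON (blue) mice, with bars of 1 standard error; filled points pass both thresholds. Prtn3 passes in both comparisons with an error of about 0.4, and Fcnb in SUS vs. CON mice, while the errors of Camp, Ltf and Ngp are near 1.2.

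Markers of other cells moved with these results in part. The 6 red cell genes (Hba-a1, Hba-a2, Hbb-bs, Hbb-bt, Alas2 and Slc4a1) summed to 331.6 to 1142 CPM in CON, 1049 to 8776 CPM in SUS and 1044 to 4130 CPM in RES libraries. All 6 were called higher in SUS vs. CON mice and 1, Slc4a1, in RES vs. CON mice. With the mean log2 level of these genes as a covariate in the edgeR fit, the change of Prtn3 was 2.73 in SUS vs. CON mice (adjusted p = 0.0727) and 2.27 in RES vs. CON mice (adjusted p = 0.906), no member was called, and 2 and 0 of all genes were called in place of 585 and 169. Within groups, Prtn3 and the red cell mean had a Pearson r of 0.27 and a Spearman rho of 0.45 over 18 libraries (r = 0.59 without the 2 libraries farthest from the median). The covariate itself differs between CON and stressed libraries, so this fit also removes much of the group difference for genes in general. The loss of calls therefore cannot be assigned to red cell RNA. The share of red cell RNA in the rise of Prtn3 was not tested.

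The 7 mature neutrophil genes (Ly6g, Cxcr2, Retnlg, Stfa2l1, Padi4, S100a8 and S100a9) summed to 70.4 to 267.0 CPM in CON, 97.9 to 603.1 CPM in SUS and 93.3 to 374.6 CPM in RES libraries. None of the 5 that were tested was called, and the other two were near 0: Ly6g reached at most 1.01 CPM, and Stfa2l1 was at 0 in all CON and RES libraries. With the mean of this list as a covariate, Prtn3 kept its calls, at 3.36 (edgeR adjusted p = 0.000389) and 2.84 (adjusted p = 0.0112), whereas Fcnb lost its call (0.84, adjusted p = 0.195) and the other 7 members had negative values in SUS vs. CON mice, from −2.14 for Ms4a3 to −0.16 for Ctsg. The list holds S100a8, the gene most like Fcnb across these libraries (r = 0.91). It also holds S100a9, among those most like Camp, Ngp, Ltf and Elane (r = 0.86 to 0.97). The covariate therefore removes much of the variation of these members by construction, and their loss of change in this fit cannot be assigned to neutrophil RNA. Basophil genes were at most 1.14 CPM in sum, and none of the 5 stem and progenitor genes or the 6 proliferation genes was called. Of 6 platelet genes (Ppbp, Pf4, Itga2b, Gp9, Gp1bb and Treml1), 1, Ppbp, was called higher in SUS vs. CON mice (2.31, SE 0.70, edgeR adjusted p = 0.0326). The 6 summed to 5.78 to 9.81 CPM in CON, 5.23 to 50.1 CPM in SUS and 7.42 to 18.5 CPM in RES libraries. In bulk samples such as these, fewer cells of a type and less RNA per cell cannot be told apart.

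Across libraries, 8 of the 9 genes were high and low in much the same libraries, and Prtn3 had low correlations with each of them. These values are descriptions across 18 Ly6C-high libraries after the mean of each group was subtracted, on log2(CPM + 0.5), and the points of each gene share the libraries and their depth. Camp and Ltf had a Pearson r of 0.99 (rho = 0.97, r = 0.98 without the 2 farthest libraries), Camp and Ngp of 0.96 (rho = 0.95, 0.97 without the 2) and Ltf and Ngp of 0.95 (rho = 0.96, 0.97 without the 2). Elane and Mpo, of the azurophil granule, had 0.89 (rho = 0.81, 0.83 without the 2), and Mpo and Camp, of different granules, 0.87 (rho = 0.85, 0.84 without the 2). Over the 28 pairs without Prtn3 the median r was 0.803, with a range of 0.524 to 0.988. The 8 pairs with Prtn3 had a median of 0.203 and a range of 0.0525 to 0.384, with rho from 0.0898 to 0.313. Prtn3 and Elane, adjacent on chromosome 10, had 0.23 (rho = 0.14, 0.16 without the 2).

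**Figure D3:**
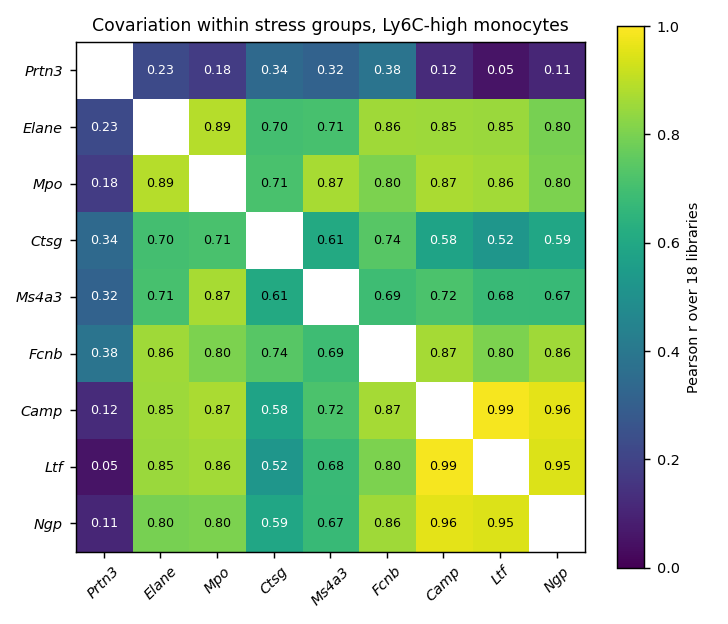
Pearson r between each pair of the 9 genes over 18 Ly6C-high libraries, after the mean of each stress group was subtracted from log2(CPM + 0.5). The row and column of Prtn3 hold values of 0.05 to 0.38, and all other pairs lie at 0.52 or above.

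The same contrast appeared against the marker means. The neutrophil mean includes S100a8 and S100a9, which are among the genes most like Elane, Fcnb, Camp, Ltf and Ngp. The mature neutrophil mean had an r of 0.82 to 0.87 with Elane, Mpo, Fcnb, Camp, Ltf and Ngp, and of 0.29 with Prtn3 (rho = 0.16, 0.12 without the 2 farthest libraries). The proliferation mean (Mki67, Top2a, Birc5, Ccnb2, Rrm2 and Cdk1) had 0.81 to 0.88 with the same 6 genes and 0.85 with Ms4a3, compared with 0.20 for Prtn3 (rho = 0.0753, −0.0966 without the 2). Ctsg stood between, with 0.58 for neutrophil and 0.56 for proliferation genes.

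The genes most like each member by r were searched among 16679 genes with a mean of at least 10 counts. For Prtn3 they were Stat3, a transcription factor of cytokine signalling (r = 0.92, rho = 0.90), Psmd2, a proteasome subunit (0.91, 0.94), and Gm7324 (0.89, 0.89). For Camp, Ltf and Ngp they were one another and S100a9, an alarmin of neutrophils and monocytes (r = 0.96 to 0.97). For Fcnb they were S100a8, Stmn1 and Camp (0.91, 0.88 and 0.87), and for Ms4a3 the mitotic genes Ccnb1 and Birc5 (0.90 and 0.89) and Mpo. Elane was most like Mpo, S100a9 and the histone gene Hist1h3b (0.89, 0.86 and 0.86), Mpo most like Chil1, Elane and Camp (0.90, 0.89 and 0.87), and Ctsg most like Lig1, Gm9234 and Olfml2b (0.86, 0.82 and 0.76). Stat3 itself changed by 0.69 in SUS vs. CON mice (SE 0.14, edgeR adjusted p = 0.00330), under the fold threshold.

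**Figure D4:**
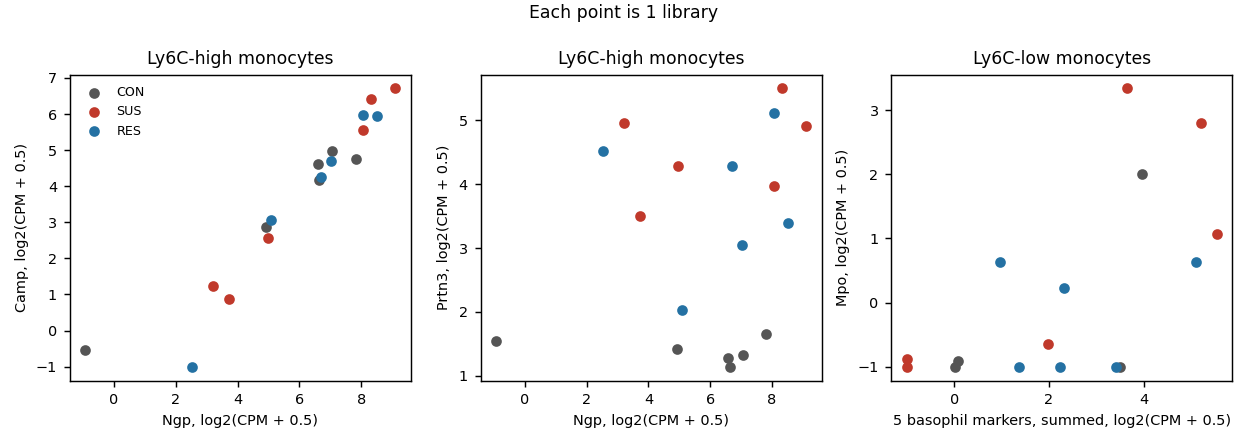
Each point is 1 library, on log2(CPM + 0.5) axes: Camp against Ngp and Prtn3 against Ngp in 18 Ly6C-high libraries, and Mpo against the sum of 5 basophil genes in 16 Ly6C-low libraries. Camp follows Ngp in all groups, and Prtn3 is flat across Ngp in CON mice and scattered above it in SUS and RES mice. Mpo tends to be higher where basophil genes are high. In RES libraries those genes reach 34.1 CPM, while Mpo is at most 1.06 CPM.

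Other granule genes were read from lists of companions, chosen with earlier results of these data known. Over all genes tested, 2.28% were called higher in SUS vs. CON mice and 0.531% in RES vs. CON mice. Of 10 companions of the specific and gelatinase granules, 4 were called higher in SUS vs. CON mice: Mmp8, neutrophil collagenase (1.49, SE 0.20, edgeR adjusted p = 0.000209), Hp, haptoglobin (1.77, SE 0.26, adjusted p = 0.000471), Chil3, a chitinase-like lectin (1.31, SE 0.19, adjusted p = 0.000471), and Cyba, a subunit of the NADPH oxidase (1.07, SE 0.20, adjusted p = 0.00177). Lcn2, a siderophore-binding protein, had 2.20 (SE 0.74, adjusted p = 0.0620), and Cybb, Cd177 and Itgb2l did not pass. In RES vs. CON mice Hp was called (1.36, SE 0.25, edgeR adjusted p = 0.0138). Mmp8 was at 109.4 ± 13.1 CPM in CON, 308.0 ± 80.8 in SUS and 213.6 ± 73.7 in RES libraries (SD, n = 6 each), without overlap between CON and either stressed group. Such separation upward held for 4.3% of genes tested in SUS vs. CON mice and 2.86% in RES vs. CON mice.

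Part of a list of serine protease inhibitors, likewise chosen with earlier results known, rose beside Prtn3. The shares of all genes called higher were 2.28% in SUS vs. CON mice and 0.531% in RES vs. CON mice. Of 6 serine protease inhibitors, 4 were called higher in SUS vs. CON mice: Slpi, the secretory leukocyte protease inhibitor (1.66, SE 0.30, edgeR adjusted p = 0.00173), the related WAP domain genes Wfdc17 (1.94, SE 0.28, adjusted p = 0.000464) and Wfdc21 (3.42, SE 0.98, adjusted p = 0.0256), and Serpinb1a, a serpin that acts on elastase, cathepsin G and proteinase 3 (1.10, SE 0.25, adjusted p = 0.00576). In RES vs. CON mice 2 of 6 were called, Slpi (1.19, SE 0.30, edgeR adjusted p = 0.0270) and Wfdc17 (1.33, SE 0.27, adjusted p = 0.0138). Slpi was at 12.9 ± 2.01 CPM in CON, 41.0 ± 26.0 in SUS and 29.6 ± 11.5 in RES libraries, and the lowest stressed library, at 17.5 CPM, was above the highest CON library, at 16.1 CPM. Of all genes tested, 4.3% separated in this way in SUS vs. CON mice and 2.86% in RES vs. CON mice. Serpinb6a and Serpina3g did not pass.

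None of the 5 azurophil companions tested passed both thresholds, and Bpi was at 0 in all 18 libraries. Lyz2, lysozyme, was the most abundant, at 14390 ± 1170 CPM in CON mice, and its change was 0.45 in SUS vs. CON mice (SE 0.13, edgeR adjusted p = 0.0268). Ctsc, the dipeptidase that activates the granule proteases, had 0.67 (SE 0.19, adjusted p = 0.0206), Srgn, the proteoglycan that holds them in the granule, 0.84 (SE 0.21, adjusted p = 0.0115), and Cd63 and Prss57 did not pass. Of 9 transcription factors of granule genes, 0 passed both thresholds. Spi1, which codes for PU.1, had 0.53 (SE 0.15, adjusted p = 0.0228), Klf4 −0.60 (SE 0.17, adjusted p = 0.0263), Irf8 0.15 (SE 0.19) and Cebpa 0.18 (SE 0.20). Cebpe, which drives specific granule genes, had 2.01 (SE 0.69, adjusted p = 0.0544). None of the 8 companions called in SUS vs. CON mice, and none of the 3 called in RES vs. CON mice, was called with the red cell covariate. In that fit 2 and 0 of all genes were called.

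Within groups, the r of Prtn3 was higher with several of these companions than with any other member. It was 0.84 with Hp (rho = 0.85), 0.79 with Slpi (0.83), 0.72 with Lyz2 (0.75), 0.70 with Cyba (0.82), 0.67 with Wfdc17 (0.73) and 0.54 with Mmp8 (0.60). With Lcn2, Cd63 and Itgb2l it was 0.56, 0.49 and 0.42 (rho = 0.48, 0.42 and 0.34). Other companions had negative values with Prtn3, such as Runx1 (−0.61, rho = −0.52), Cybb (−0.54, −0.48) and Prss57 (−0.42, −0.12). Ngp, taken as the most abundant specific granule gene, had 0.03 with Hp, −0.10 with Slpi, 0.05 with Cyba, −0.29 with Wfdc17 and −0.37 with Mmp8. Its r was 0.85 with the specific granule gene Itgb2l (rho = 0.91), 0.73 with Lcn2 (0.74) and 0.69 with the granule membrane gene Cd63 (0.80). Leaving out the 2 libraries farthest from the median gave Prtn3 and Hp 0.86 and Ngp and Itgb2l 0.91.

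The locus of Prtn3 holds a further gene that moved with it. Plppr3, which codes for a phospholipid phosphatase-related membrane protein, lies on the minus strand at chr10:79860475-79874634 and overlaps the annotated start of Prtn3 by 159 bases. It was at 4.63, 4.90 and 7.32 CPM in CON mice, at 8.43, 16.3 and 28.9 CPM in SUS mice and at 2.46, 10.1 and 18.5 CPM in RES mice. All SUS libraries thus lay above all CON libraries, as for 4.3% of genes tested, while RES libraries overlapped CON libraries. Plppr3 was called higher in SUS vs. CON mice (1.68, SE 0.39, edgeR adjusted p = 0.00639) and not in RES vs. CON mice (0.94, SE 0.38, adjusted p = 0.147). Its r with Prtn3 within groups was 0.85 (rho = 0.69, 0.70 without the 2 farthest libraries).

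The overlap lies in 1 of the 6 annotated transcripts of Prtn3, the non-coding Prtn3-202, which begins at base 79874476, 5138 bases before the first coding transcript, and whose first exon of 246 bases has 159 within Plppr3. The counts are per gene and do not separate transcripts. The library kit marks strand, but the strand setting of the counting is not given in the sources used here, so reads of Plppr3 and of this exon cannot be told apart. Cfd, beyond Elane on the same strand, had 0.725 CPM at most and was not tested. None of the other tested neighbours, Tspoap1, Olfm1, Nme6, Cdc25a, Ccrl2, Ptpn23 and Klhl18, passed both thresholds in either comparison with CON mice.

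In CON mice the 9 genes were highest in Ly6C-high monocytes. Levels were compared in 1 edgeR fit over the 68 libraries of all cell types. All 9 were called higher than in B cells, against 17.2% of genes tested, and than in T cells, against 15.9%. Compared with Ly6C-low monocytes, 5 of 9 were called higher (Ctsg, Fcnb, Camp, Ltf and Ngp), against 4.08%. Prtn3 had 3.50 on the log2 scale in that comparison (SE 1.27, adjusted p = 0.0517), and Elane, Mpo and Ms4a3 did not pass either. Without CON replicate 3 of Ly6C-low monocytes, which held 27 reads of Prtn3, 14 of Elane and 103 of Mpo where the other 3 libraries held at most 1 of each, 7 of 9 were called, Prtn3 and Mpo being added.

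**Figure D5:**
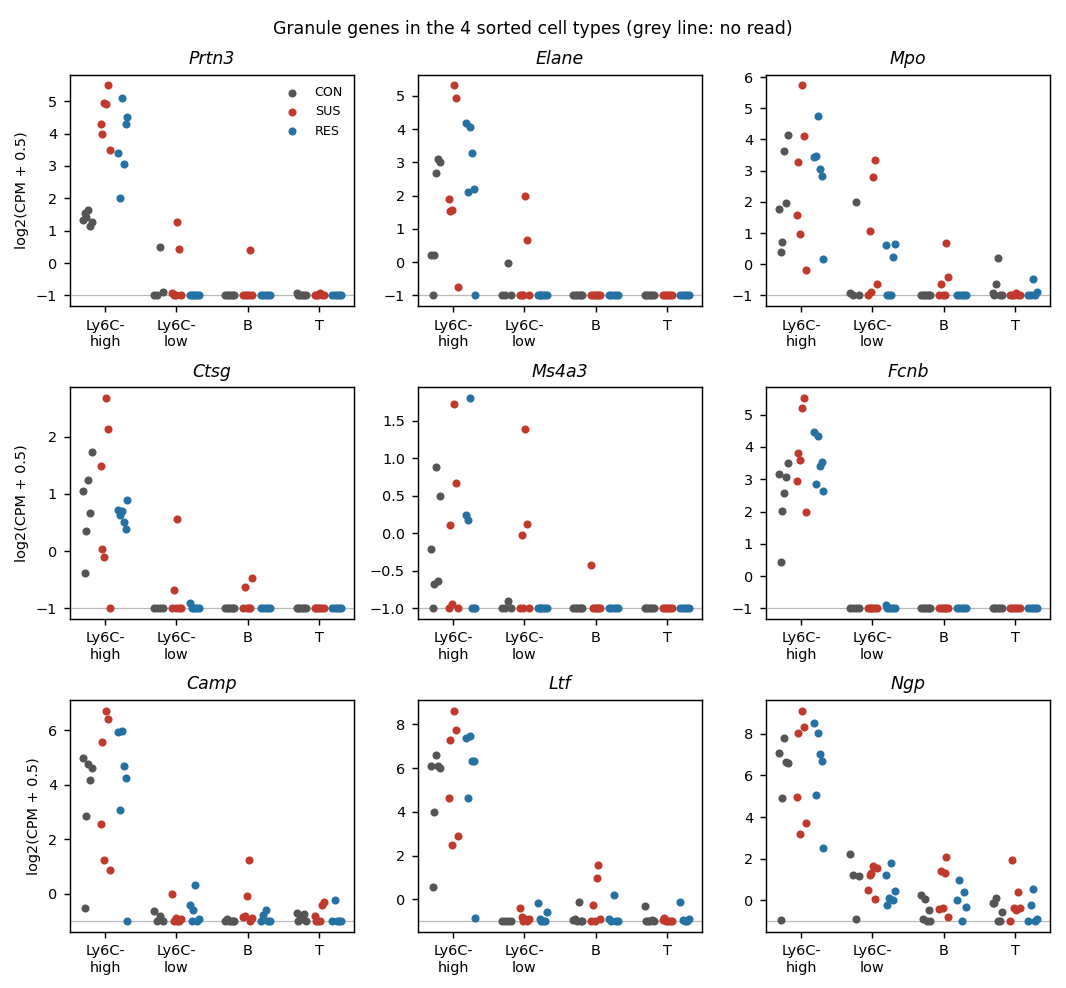
Level of each gene in each library of the 4 cell types, as log2(CPM + 0.5), for CON (grey), SUS (red) and RES (blue) mice; the grey line at −1 marks libraries without a read, and CPM were scaled within each cell type. Fcnb is at or near the line outside Ly6C-high monocytes, while Prtn3, Elane, Mpo and Ms4a3 appear in single Ly6C-low libraries of CON and SUS mice.

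The size of these differences was large. Mean Prtn3 in CON mice was 2.15 CPM in Ly6C-high and 0.238 ± 0.454 CPM (SD, n = 4) in Ly6C-low monocytes, where replicate 3 held 0.919 CPM and the other libraries 0, 0 and 0.0350 CPM. In the 6 B cell libraries no read of Prtn3 was found, so that it was at least 163-fold higher in Ly6C-high monocytes. Fcnb had no read in CON libraries of the other 3 cell types and was at least 266-fold, 468-fold and 484-fold higher in Ly6C-high monocytes than in Ly6C-low monocytes, in B and in T cells. Ltf, without a read in Ly6C-low CON libraries, was at least 2241-fold higher, and mean Ngp was 97.2 ± 79.7 CPM in Ly6C-high monocytes, compared with 0.264 ± 0.243 for T cells, 0.252 ± 0.306 for B cells and 1.95 ± 1.71 for Ly6C-low monocytes. Each bound is set against 3 reads over the group without reads and covers counting error alone, since the reads carry no molecular identifiers and may be copies. The CPM behind these folds were scaled within each cell type, so differences in scaling between cell types are not covered.

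In Ly6C-low monocytes the azurophil genes and Ms4a3 appeared together in single libraries, whereas Fcnb had 1 read over all 16 libraries. SUS replicate 4 held 66 reads of Prtn3, 118 of Elane, 221 of Mpo, 33 of Ctsg and 72 of Ms4a3, and SUS replicate 5 held 23, 30, 263, 0 and 16. SUS replicate 2 held 66 reads of Mpo, 5 of Ctsg and 20 of Ms4a3, without Prtn3 or Elane. In the 6 RES libraries no read of Prtn3, Elane or Ms4a3 was found, while 3 of them held 22 to 38 reads of Mpo. Ngp was spread more evenly, at 1.95 ± 1.71 CPM in CON (n = 4), 1.73 ± 0.837 in SUS and 1.18 ± 1.01 in RES libraries (n = 6 each). The mature neutrophil genes summed to 4.54 to 40.9, 12.6 to 69.7 and 7.57 to 34.5 CPM in these groups.

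Of the 9 genes, 2 passed the filter on low counts in Ly6C-low monocytes. Mpo had a change of 1.76 in SUS vs. CON mice (SE 2.04, edgeR adjusted p = 0.895) and −0.92 in RES vs. CON mice (SE 1.92, adjusted p = 0.953). Ngp had −0.18 (SE 0.80, adjusted p = 0.981) and −0.72 (SE 0.79, adjusted p = 0.872). Neither was called, where 0.0871% of all genes were called in SUS vs. CON, 0.0154% in RES vs. CON and 0% in SUS vs. RES mice. DESeq2 called neither as well.

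The basophil genes Mcpt8, Prss34, Cpa3, Fcer1a and Ms4a2, which are nearly absent from Ly6C-high libraries, summed to 0.511 to 15.2 CPM in CON, 0 to 46.3 CPM in SUS and 1.45 to 34.1 CPM in RES libraries of Ly6C-low monocytes. Over the 16 libraries, within groups, their mean had an r of 0.72 with Mpo (rho = 0.69, 0.81 without the 2 farthest libraries), 0.67 with Ms4a3 (0.78, 0.80), 0.55 with Prtn3 (0.53, 0.89) and 0.52 with Elane (0.54, 0.87). For Camp it was −0.21 and for Ngp −0.07. In RES libraries, where these genes reached 34.1 CPM, Mpo was at most 1.06 CPM and Prtn3, Elane and Ms4a3 had no read. The points share library and depth, and most libraries hold no read of Prtn3, Elane and Ms4a3. The part of basophil RNA in these reads was not tested.

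In B cells and T cells the members were at 3.79 CPM or lower in every library, and Ngp was the most frequent. Ngp had no read in 3 of 17 B cell libraries and 5 of 17 T cell libraries, whereas Elane and Fcnb had none in any of them. B cell replicate 5 of SUS mice held 28 reads of Prtn3, 37 of Mpo, 84 of Ltf and 128 of Ngp, and the only Prtn3 reads in B cells. Ltf and Ngp passed the filter in B cells. Ltf had 3.16 in SUS vs. CON mice (SE 1.74, edgeR adjusted p = 0.999) and Ngp 2.46 (SE 1.17, adjusted p = 0.999), against 0.00568% of genes called in that comparison.

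In T cells Ngp alone was tested, with 1.62 in SUS vs. CON mice (SE 1.47, edgeR adjusted p = 0.999), where 0.0265% of genes were called, and 0.06 in RES vs. CON mice (SE 1.5, adjusted p = 0.999). No gene was called in RES vs. CON or SUS vs. RES mice in either lymphocyte (0% each). With libraries 52 and 70 included, no member was called in these comparisons either.

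Whether the response to stress differed between cell types was tested as an interaction in the same fit. None of the 9 members passed at an adjusted p under 0.05 against T cells, B cells or Ly6C-low monocytes, where 3.22%, 6.18% and 0.363% of genes passed. Where the other cell type held no read in CON and SUS libraries, its change could not be estimated and the test could not pass. This was so for Fcnb against all 3 cell types (SE 5288 to 5432) and for Elane against B and T cells (SE 18357 and 17735). It was also so for Ctsg and Ms4a3 against T cells (SE 2784 and 2370). For Prtn3 the change in SUS vs. CON mice was larger by 2.57 on the log2 scale in Ly6C-high than in Ly6C-low monocytes (SE 1.51, edgeR adjusted p = 0.469). At an unadjusted p under 0.05 stood 1 member against each of the 3, Ctsg against Ly6C-low monocytes and B cells and Mpo against T cells, where 3447, 5137 and 4541 of all 24248 genes did.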

How the data were processed

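RNA of sorted blood leukocytes was sequenced with a stranded total RNA kit (SMARTer Pico). The authors deposited 1 table of raw read counts per gene. The submitters' processing notes name HISAT2, HTSeq, DESeq2 and mm10, and the strand setting of the counting is not given in the sources used here. Of 52636 rows, 52403 matched GENCODE M21.

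Libraries were grouped by their labels, and libraries 52 and 70 were left out. Counts were filtered (filterByExpr), scaled by TMM and tested per cell type with edgeR 4.0.16 (quasi-likelihood, robust) in R 4.3.3, with limma 3.58.1 beneath it. P-values were adjusted over all genes tested (Benjamini-Hochberg), with calls at 0.05 and an absolute log2 fold change above 1. Cell types were compared in 1 fit of 12 group means over 68 libraries. Correlations used log2(CPM + 0.5). The procedure was tested on simulated data. The alternatives were DESeq2 1.42.0, its size factors, other count filters, the 2 groups alone, marker covariates, left-out libraries and other pseudocounts; leaving out Ly6C-low CON libraries in the joint fit was added after seeing the data. Named were all 9 members, companions past both thresholds, up to 4 others per list by mean CPM, the 3 genes most like each member, and the adjacent genes. Cebpe and Prss57 fall outside that rule and were chosen after their values were seen. Runx1, named as an example of a negative r with Prtn3, also takes the uncalled transcription factors beyond 4. Bpi, at 0 in all Ly6C-high libraries, is likewise beyond the 4 of its list. Members and lists were chosen with earlier results of these data known.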

Additional observations from a re-analysis of the deposited data

Results flagged for a closer look

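Of 58 member and group pairs with 4 to 10 libraries and some reads, 20 held 1 library far above the rest of its group by Dixon's test. Chance alone gives this in about 1 in 20 groups of normally distributed values. Several of the groups here held no read in most libraries, and the pairs share libraries, so the 20 cannot be set against that share. In Ly6C-high monocytes, SUS replicate 4 stood apart for Mpo, at 53.0 CPM, and RES replicate 3 for Ms4a3, at 2.98 CPM.

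In Ly6C-low monocytes, CON replicate 3 stood apart for Prtn3 (0.919 CPM), Elane (0.476 CPM) and Mpo (3.51 CPM). SUS replicate 4 stood apart for Elane (3.45 CPM), Ctsg (0.966 CPM) and Ms4a3 (2.11 CPM). For Camp it was SUS replicate 1 (0.499 CPM) and RES replicate 4 (0.741 CPM).

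In B cells, SUS replicate 5 was apart for Prtn3 (0.830 CPM) and Mpo (1.10 CPM), SUS replicate 4 for Camp (1.84 CPM), CON replicate 4 for Ltf (0.412 CPM) and RES replicate 3 for Ltf (0.659 CPM). In T cells, CON replicate 4 was apart for Mpo (0.653 CPM), RES replicate 2 for Camp (0.352 CPM), CON replicate 1 and RES replicate 1 for Ltf (0.310 and 0.430 CPM) and SUS replicate 2 for Ngp (3.30 CPM).

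The libraries that were left out held member reads above the highest CON library of their labelled cell type. Library 70, labelled T cells, held 10 reads of Fcnb, where CON libraries had 0, and library 52, labelled B cells, held 10 reads of Camp, where CON libraries had at most 1.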

How the results depend on the processing

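Prtn3 kept both calls without any 1 of the 18 libraries, at 3.27 to 3.67 in SUS vs. CON and 2.55 to 3.12 in RES vs. CON mice, and lost both with the red cell covariate. In that covariate fit 2 and 0 of all genes were called, so the loss is not particular to Prtn3. Members called in Ly6C-high monocytes in SUS vs. CON mice were 1 in place of 2 with DESeq2's size factors, without the low-count filter, with the 2 groups alone or with the neutrophil covariate, 0 with the red cell covariate, and 1 to 2 without 1 library. In RES vs. CON mice they were 0 with the red cell covariate. Fcnb lost its call at 1.60 (size factors, edgeR adjusted p = 0.0551), 1.65 (no filter, 0.117), 1.64 (2 groups, 0.0650) and 0.99 (red cell covariate, 0.909).

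Companions called were 0 with the red cell covariate and 13 by adjusted p alone in SUS vs. CON mice (6 to 10 without 1 library), and 0 and 9 in RES vs. CON mice (2 to 5). In Ly6C-low monocytes 1 companion, Serpinb6a, was called in SUS vs. CON mice, compared with 3 by DESeq2, 2 with at least 10 counts in every library, 0 with either covariate and 0 to 2 without 1 library. DESeq2 called 2 in RES vs. CON mice, and 1 in B cells of SUS vs. CON mice, where edgeR called 0. Members above Ly6C-low monocytes in CON mice were 5 to 7 without 1 library.

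With the neutrophil covariate, values turned negative in the Ly6C-high cells of SUS vs. CON mice for Elane (−0.22), Mpo (−1.02), Ctsg (−0.16), Ms4a3 (−2.14), Camp (−0.996), Ltf (−0.54) and Ngp (−0.70), of RES vs. CON mice for Camp (−0.0456), and of SUS vs. RES mice for Elane (−1.05), Mpo (−1.40), Ms4a3 (−2.19), Fcnb (−0.0268), Camp (−0.95), Ltf (−0.86) and Ngp (−0.95). In B cells Ltf turned to −0.98 in SUS and −3.90 in RES vs. CON mice. With the red cell covariate, Ms4a3 turned to −0.23 and −0.33 in SUS and RES vs. CON mice, Ngp to 0.22 in the Ly6C-low cells of SUS vs. CON mice, and, in RES vs. CON mice, Ltf to −0.51 in B cells and Ngp to −2.05 in T cells. None of these values passed in either fit, and the cause was not tested.

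Without 1 library, values changed sign for Mpo (−0.0701 to 1.82) and Ms4a3 (−0.53 to 1.25) in SUS vs. CON and Ms4a3 (−0.85 to 1.21) in RES vs. CON mice, and in SUS vs. RES mice for Elane (−0.18 to 0.95), Mpo (−0.79 to 0.95), Ms4a3 (−1.11 to 1.496), Camp (−0.0747 to 0.84), Ltf (−0.13 to 0.92) and Ngp (−0.25 to 0.88). In the other cell types they did so for Ngp (−0.58 to 0.51, SUS) and Mpo (−1.36 to 5.09, RES) in Ly6C-low monocytes, Ltf (−2.94 to 1.12, RES) in B cells and Ngp (−1.37 to 0.45, RES) in T cells, all vs. CON mice. With a pseudocount of 1, 1 of the 3 genes most like Elane was shared. No paired analysis was possible because the labels give each library its own number. Low reads limit Ms4a3, which had 10 or more in 9 of 18 Ly6C-high libraries, and the members that failed the count filter in other cell types, where Mpo and Ngp were tested in Ly6C-low monocytes, Ltf and Ngp in B cells and Ngp in T cells.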

Other observations

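Within Ly6C-high libraries, the ratio of Ltf to Ngp reads was more even than either level. The medians were 0.589 for CON, 0.6252 for SUS and 0.642 for RES libraries, with 0.557 to 0.782 over SUS libraries. The exceptions were CON replicate 2, at 40.0, with 1 read of Ngp, and RES replicate 6, at 0.00980, with 1 read of Ltf. The ratio of Prtn3 to Elane reads ranged from 0.211 to 3.23 in the 5 CON libraries that held Elane, from 0.750 to 115.8 in SUS libraries and from 0.565 to 4.60 in the 5 RES libraries that held it.

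Ly6C-low libraries also held reads of genes listed as markers of further cell types, and the source of these reads was not tested. The 5 NK cell genes (Ncr1, Klrb1c, Prf1, Gzma and Eomes) summed to 328.4 to 1071 CPM in CON, 432.1 to 1139 CPM in SUS and 620.0 to 1727 CPM in RES libraries, compared with at most 39.1 CPM in Ly6C-high libraries. In T cell libraries the NK cell genes summed to 58.7 to 237.3 CPM. The 5 eosinophil genes (Siglecf, Prg2, Epx, Ccr3 and Il5ra) summed to 4.41 to 53.4, 8.95 to 81.7 and 5.51 to 28.2 CPM in the same Ly6C-low groups. The medians of Prg2 and Epx in these groups were at most 0.64 and 0.68 CPM. In B cell libraries the eosinophil genes summed to 13.6 to 34.3 CPM.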
